A study of Rattus norvegicus with 9 samples.

Results

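The genes described here are 47 genes of G2 and mitosis, listed by function: the cyclins and Cdk1, the mitotic kinases, the kinetochore and its checkpoint, the chromosomal passenger complex, the anaphase-promoting complex, the spindle and the machinery of cytokinesis. A listed gene was measured where a probe set was annotated to it alone, and the probe set with the highest mean over all arrays stood for it. By this rule 43 of the 47 genes were measured, among 14213 genes in all. Nek2, Ndc80 and Tpx2 had no such probe set, and the probe set of Anln was shared with Anlnl1, so these 4 genes have no value below.

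Entry into mitosis is driven by Cdk1 bound to the B-type cyclins, and exit from it by the anaphase-promoting complex (APC/C), a ubiquitin ligase that with Cdc20 has securin and cyclin B destroyed once the spindle checkpoint is satisfied. The genes of this programme are transcribed as a block in G2, so that their RNA is a common measure of how much of a culture is dividing. Schwann cells, the glia that wrap peripheral axons, leave the cell cycle as they mature, re-enter it after nerve injury and also divide in culture.

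Total RNA from primary rat Schwann cells of the sciatic nerve was hybridised to Affymetrix rat arrays, 1 array per sample, with 3 independent replicates in each of 3 groups. NF1 RNAi + U0126 cells received oligonucleotides against Nf1, which encodes the Ras-inactivating protein neurofibromin, and U0126 (spelled UO126 in the sample labels), which blocks MEK, the kinase directly upstream of ERK. NF1 RNAi cells received the same oligonucleotides without the inhibitor, and Control RNAi cells received scrambled oligonucleotides; all samples were transiently transfected and taken at 48 hours. Control cells given U0126 were not analysed here, and the labels state neither the inhibitor dose nor the share of cells transfected. Levels below are log2(intensity + 1) in the order of replicates 1, 2 and 3, differences are on the same log2 scale ± the standard error of a limma fit over all 9 arrays (n = 3 per group), and a gene is said to have risen or fallen where its p, adjusted over the 14213 genes, was under 0.05. In RNA from whole cultures, fewer dividing cells and less of these RNAs per dividing cell cannot be told apart.

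Nf1 itself had levels of 5.44, 5.72 and 5.39 in NF1 RNAi + U0126 samples, 5.39, 5.41 and 5.44 in NF1 RNAi samples and 6.65, 6.59 and 6.15 in Control RNAi samples, and fell by 1.05 ± 0.13 with NF1 RNAi (adjusted p = 0.000695). The 9 measured Schwann cell markers were all at a level of 6 or more on each Control RNAi array, and 7 or 8 of them were on each other array.

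Many promoters of this class carry a cell cycle genes homology region (CHR), the element bound by the MuvB complex, which represses with the p107 and p130 proteins in resting cells and activates with B-Myb and FOXM1 in G2. It often lies near CCAAT boxes bound by NF-Y. Promoter windows, from 250 bases before to 50 bases after the annotated start in RefSeq (GRCr8), were found for 38 of the 47 genes and searched on both strands. The CHR letters TTTGAA or TTCGAA stood in the windows of 29 of these 38 genes (76.3%), against 15.0% of the 11736 genes on the array with a window. CCAAT stood in 28 (73.7%), against 38.6%, and both together in 23 (60.5%), against 6.15%. The E2F letters (TTCCCGC, otherwise TTCGCGC, otherwise TTGGCGC) stood in 7 (18.4%), against 13.8%. Windows with the CHR letters belonged to 27 measured genes, of which 20 fell with NF1 RNAi with a median difference of -1.65, and windows without them to 8, of which 3 fell with a median of -1.40. The 8 measured genes with no window in the table, of which 7 fell, had a median of -1.95. Over all genes 13.3% fell. Without Control RNAi replicate 1, in the same order, 23, 5 and 7 fell, with medians of -0.97, -0.71 and -1.34. The stretches below run over the 150 bases before the annotated start, and show how these letters lie in the genes with some of the largest differences (Mki67, Cdk1, Prc1, Ccnb2) and in members with smaller ones (Cdc20, Birc5, Tacc3). Capitals mark TTTGAA, and CCAAT or its complement ATTGG. E2F letters are left in lower case.
Mki67, chr1:199952594-199952743, minus strand: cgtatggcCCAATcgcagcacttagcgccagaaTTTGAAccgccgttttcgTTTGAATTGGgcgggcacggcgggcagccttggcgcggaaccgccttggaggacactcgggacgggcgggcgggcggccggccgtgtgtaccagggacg
Cdk1, chr20:19265143-19265292, plus strand: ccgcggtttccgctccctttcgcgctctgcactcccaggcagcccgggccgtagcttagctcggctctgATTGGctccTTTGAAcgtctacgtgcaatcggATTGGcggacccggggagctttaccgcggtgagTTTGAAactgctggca
Prc1, chr1:143659331-143659480, plus strand: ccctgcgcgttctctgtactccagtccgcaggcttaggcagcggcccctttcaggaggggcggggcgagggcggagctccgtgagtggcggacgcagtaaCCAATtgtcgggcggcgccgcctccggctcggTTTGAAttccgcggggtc
Ccnb2, chr8:79981659-79981808, minus strand: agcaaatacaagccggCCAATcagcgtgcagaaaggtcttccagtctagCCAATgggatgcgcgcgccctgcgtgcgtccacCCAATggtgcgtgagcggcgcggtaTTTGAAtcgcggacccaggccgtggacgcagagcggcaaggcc
Cdc20, chr5:137255800-137255949, minus strand: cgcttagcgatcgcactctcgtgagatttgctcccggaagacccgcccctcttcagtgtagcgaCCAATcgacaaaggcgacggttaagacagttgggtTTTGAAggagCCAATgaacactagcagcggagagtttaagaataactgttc
Birc5, chr10:103571996-103572145, plus strand: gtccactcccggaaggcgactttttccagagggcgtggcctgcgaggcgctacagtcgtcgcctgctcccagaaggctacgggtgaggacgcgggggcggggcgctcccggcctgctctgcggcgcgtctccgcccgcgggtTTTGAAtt
Tacc3, chr14:81289699-81289848, minus strand: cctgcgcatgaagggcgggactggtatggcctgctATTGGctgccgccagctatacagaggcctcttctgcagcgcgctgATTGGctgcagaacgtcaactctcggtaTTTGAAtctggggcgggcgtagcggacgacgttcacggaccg
In Mki67 the second TTTGAA shares its last letter with ATTGG, and in Ect2, which is not shown, CCAAT overlaps E2F letters. Tacc3, whose level differed least with NF1 RNAi on the probe set used, holds the CHR letters and 2 CCAAT boxes in the same stretch as the genes that fell. Its other probe set differed by -1.45 ± 0.46 (limma adjusted p over all probe sets = 0.0536).

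**Figure D1:**
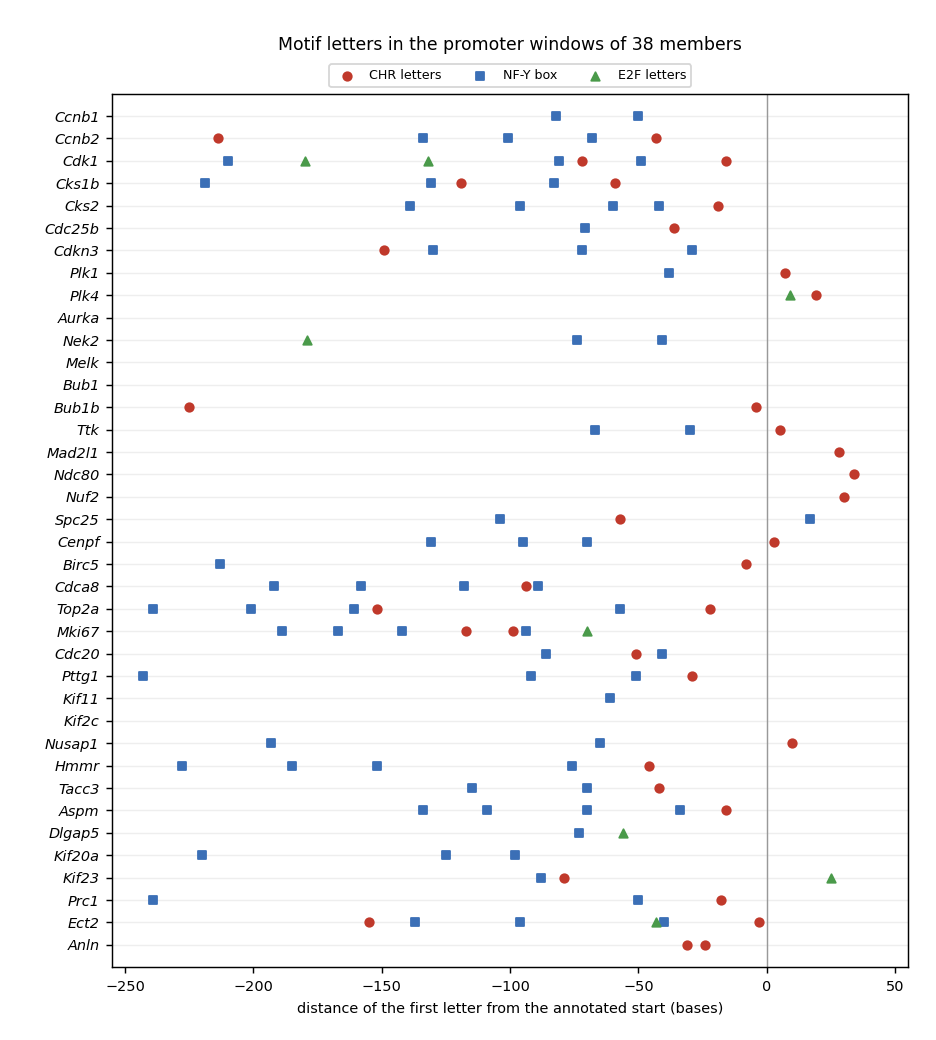
Position of the CHR, NF-Y and E2F letters (either strand) in the promoter windows of 38 genes, as the distance in bases of the first letter from the annotated start. The CHR letters are in the windows of 29 genes, most of them close to the start, and NF-Y boxes in those of 28.

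Levels of the 43 genes differed between the groups and also within the control group. Their median on the arrays of replicates 1, 2 and 3 was 5.62, 5.64 and 5.61 in NF1 RNAi + U0126 samples, 6.13, 5.83 and 5.65 in NF1 RNAi samples, and 8.70, 6.74 and 6.77 in Control RNAi samples. Control RNAi replicate 1 thus stood far above the other 2 controls, which lay close together. It was the highest control array for 42 of the 43 genes, against 40.9% of all genes, and the exception was Zwint. The excess of replicate 1 over the mean of the other 2 controls had a median of 1.91, and it was largest for Pimreg (3.16), Top2a (3.15), Mki67 (2.77) and Ect2 (2.77). Replicate 1 was also the highest array for 25 of the 43 genes in NF1 RNAi + U0126 samples (35.1% of all genes) and for 30 in NF1 RNAi samples (32.8% of all genes), but its median excess there was 0.10 and 0.18. A level of 6 was reached by 58.0% to 58.5% of probe sets per array. On NF1 RNAi + U0126 arrays 27 to 29 of the 43 genes lay below it, on NF1 RNAi arrays 21 to 27, and on Control RNAi arrays 0, 8 and 6.

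Other measures also differed between arrays. For beta-actin, the 3' probe set exceeded the 5' one, a measure of RNA integrity, by a log2 difference of 0.85 to 0.87 on NF1 RNAi + U0126 arrays, 0.78 to 0.85 on NF1 RNAi arrays and 0.90, 0.62 and 0.60 on Control RNAi arrays. Control RNAi replicates 2 and 3 thus lay below all other arrays. For GAPDH the same difference was -0.06 to -0.05 on NF1 RNAi + U0126 arrays and -0.10 to -0.02 on NF1 RNAi arrays. On Control RNAi arrays it was 0.06, -0.06 and -0.11. Summed intensities of 12 fibroblast markers ran from 31121 to 45634 in NF1 RNAi + U0126 samples and from 42737 to 50238 in NF1 RNAi samples, and were 54726, 49955 and 48101 in Control RNAi samples. Those of the 9 Schwann cell markers ran from 26135 to 26734 in NF1 RNAi + U0126 samples and from 29641 to 30265 in NF1 RNAi samples, and were 20269, 24927 and 25355 in Control RNAi samples. The median level of the same 9 markers did not follow the sum. It was 7.64, 7.50 and 7.70 in NF1 RNAi + U0126 samples and 8.48, 9.04 and 9.45 in NF1 RNAi samples. In Control RNAi samples it was 9.43, 9.80 and 9.99. Of 12 macrophage and leukocyte markers, 2 or 3 reached a level of 6 on any array, and of 9 endothelial and mural markers, 3 did. Their part in the levels of the mitosis genes was not tested, and the counts of calls and the differences of the genes described by array are given below with and without Control RNAi replicate 1.

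**Figure D2:**
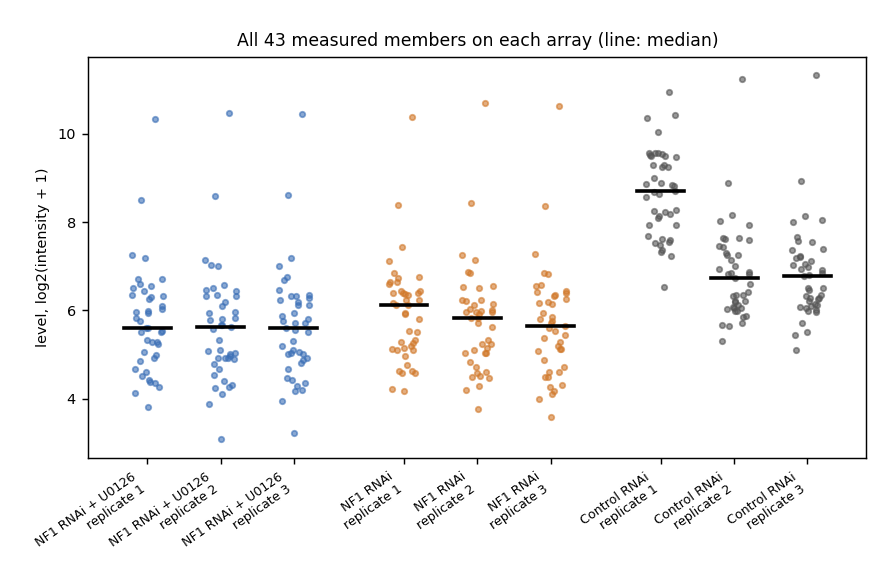
Level, log2(intensity + 1), of each of the 43 measured genes (points) on each array, with the median as a line. The medians of the 6 NF1 RNAi arrays, with and without U0126, lie between 5.61 and 6.13, and those of the controls at 8.70, 6.74 and 6.77.

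NF1 RNAi against Control RNAi asks how these genes differ with knockdown of Nf1 RNA, without the inhibitor. Most of the mitotic programme was lower: 30 of the 43 genes fell and 0 rose, where 13.3% of all genes fell and 13.0% rose. The median difference was -1.65, against 0.02 over all genes, and each of the 43 differences was below 0, as were 46.0% of those of all genes. All 3 NF1 RNAi arrays lay below all 3 controls for 40 of the 43 genes, where 20.0% of all genes did so, and the groups overlapped for Foxm1, Tacc3 and Kif23. Without Control RNAi replicate 1, differences were smaller and their errors smaller still: 35 genes fell (13.2% of all genes), the median was -1.01 and 42 differences were below 0, against 45.2% of all genes. The count was 16 without NF1 RNAi replicate 2 and 17 without NF1 RNAi replicate 3, and 16 of the 30 genes passed whichever array was left out. The shares of all genes were not taken for these last counts.

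**Figure D3:**
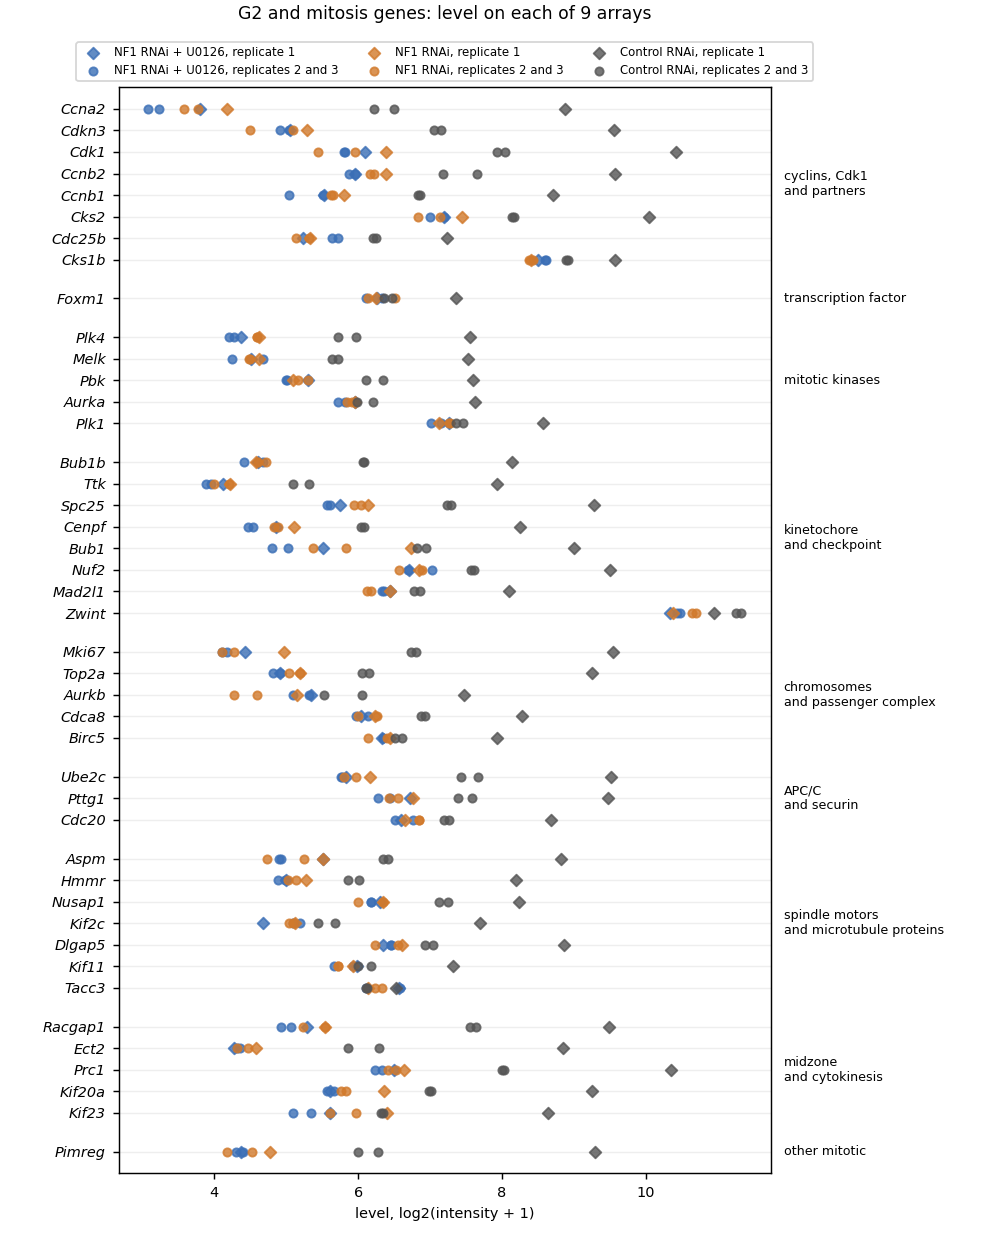
Level, log2(intensity + 1), of each gene on each of the 9 arrays, by role and, within a role, by the difference between NF1 RNAi and Control RNAi. Control RNAi replicate 1 (grey diamonds) lies to the right of the other controls for all genes but Zwint, and the NF1 RNAi arrays with and without U0126 lie left of the controls for most genes.

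All 8 genes of the cyclins, Cdk1 and their partners fell, with a median of -1.82, or -1.15 without Control RNAi replicate 1. Ccna2, cyclin A2, which acts from S phase into early mitosis, had levels of 3.81, 3.08 and 3.23 in NF1 RNAi + U0126 samples, 4.18, 3.78 and 3.59 in NF1 RNAi samples and 8.87, 6.22 and 6.50 in Control RNAi samples. It fell by 3.35 ± 0.60 (adjusted p = 0.00355) and fell by 2.51 ± 0.23 without Control RNAi replicate 1 (adjusted p = 0.000194), a change of 10.2-fold and 5.71-fold. Cdk1, the kinase that the mitotic cyclins activate, had levels of 6.10, 5.82 and 5.80 in NF1 RNAi + U0126 samples, 6.39, 5.96 and 5.44 in NF1 RNAi samples and 10.42, 7.94 and 8.05 in Control RNAi samples. It fell by 2.87 ± 0.58 (adjusted p = 0.0065) and fell by 2.06 ± 0.23 without Control RNAi replicate 1 (adjusted p = 0.000484). The lowest control array of both genes was above the highest NF1 RNAi array by more than control replicates 2 and 3 differed. Cdkn3, a phosphatase that acts on cyclin-dependent kinases, had levels of 5.05, 4.92 and 5.04 in NF1 RNAi + U0126 samples, 5.30, 5.10 and 4.50 in NF1 RNAi samples and 9.55, 7.15 and 7.06 in Control RNAi samples. It fell by 2.96 ± 0.57 (adjusted p = 0.00536) and fell by 2.14 ± 0.20 without Control RNAi replicate 1 (adjusted p = 0.00019). Ccnb1, cyclin B1, the main mitotic partner of Cdk1, had levels of 5.53, 5.04 and 5.51 in NF1 RNAi + U0126 samples, 5.81, 5.62 and 5.65 in NF1 RNAi samples and 8.70, 6.84 and 6.85 in Control RNAi samples. It fell by 1.77 ± 0.43 (adjusted p = 0.0156) and fell by 1.15 ± 0.14 without Control RNAi replicate 1 (adjusted p = 0.000696). Replicates 2 and 3 of the controls were almost equal for Ccnb1, and it passed the test without replicate 1. Of the others, Ccnb2 fell by 1.87, Cks2 fell by 1.65, Cdc25b, a phosphatase that activates Cdk1, fell by 1.31, and Cks1b fell by 0.72. Without Control RNAi replicate 1 their differences were -1.15, -1.02, -0.97 and -0.50, and all 4 passed. The smallest of these, Cks1b, had an error of 0.16 and an adjusted p of 0.00924 over all 9 arrays.

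Foxm1, the transcription factor that switches on many G2 genes, did not pass the test. Its levels were 6.27, 6.11 and 6.33 in NF1 RNAi + U0126 samples, 6.25, 6.51 and 6.14 in NF1 RNAi samples and 7.36, 6.35 and 6.47 in Control RNAi samples. The NF1 RNAi arrays lay on both sides of control replicates 2 and 3. Its difference was -0.43 ± 0.23 (adjusted p = 0.223), or -0.12 ± 0.11 without Control RNAi replicate 1 (adjusted p = 0.521).

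Of the 5 measured mitotic kinases 3 fell. Plk4, which starts the duplication of centrioles, had levels of 4.37, 4.27 and 4.20 in NF1 RNAi + U0126 samples, 4.63, 4.60 and 4.60 in NF1 RNAi samples and 7.56, 5.72 and 5.97 in Control RNAi samples. It fell by 1.81 ± 0.39 (adjusted p = 0.00896) and fell by 1.23 ± 0.09 without Control RNAi replicate 1 (adjusted p = 6.31e-05). The 3 NF1 RNAi arrays were almost equal. Melk, a kinase of proliferating cells, had levels of 4.51, 4.24 and 4.67 in NF1 RNAi + U0126 samples, 4.63, 4.50 and 4.48 in NF1 RNAi samples and 7.53, 5.64 and 5.72 in Control RNAi samples and fell by 1.76 ± 0.43 (adjusted p = 0.0148) and fell by 1.15 ± 0.12 without Control RNAi replicate 1 (adjusted p = 0.000305). Pbk, a mitotic MAP kinase kinase-like kinase, had levels of 5.30, 5.0 and 5.02 in NF1 RNAi + U0126 samples, 5.10, 5.16 and 5.30 in NF1 RNAi samples and 7.60, 6.34 and 6.12 in Control RNAi samples and fell by 1.50 ± 0.32 (adjusted p = 0.00867) and fell by 1.04 ± 0.11 without Control RNAi replicate 1 (adjusted p = 0.00041). The other 2, which drive mitotic entry and centrosome maturation, did not pass. Plk1 had levels of 7.26, 7.15 and 7.01 in NF1 RNAi + U0126 samples, 7.12, 7.26 and 7.27 in NF1 RNAi samples and 8.57, 7.46 and 7.36 in Control RNAi samples, and a difference of -0.58 ± 0.27 (adjusted p = 0.158), or -0.19 ± 0.09 without Control RNAi replicate 1 (adjusted p = 0.162). Aurka had levels of 5.95, 5.82 and 5.72 in NF1 RNAi + U0126 samples, 5.95, 5.92 and 5.85 in NF1 RNAi samples and 7.62, 5.99 and 6.21 in Control RNAi samples, and a difference of -0.70 ± 0.35 (adjusted p = 0.184), or -0.19 ± 0.09 without Control RNAi replicate 1 (adjusted p = 0.176). In both genes the NF1 RNAi arrays were below every control, by a small margin beside replicates 2 and 3.

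Of the 8 measured genes of the kinetochore, the protein assembly that holds microtubules, and of its checkpoint, 7 fell. Bub1b, which encodes the checkpoint protein BubR1, had levels of 4.61, 4.67 and 4.42 in NF1 RNAi + U0126 samples, 4.58, 4.72 and 4.61 in NF1 RNAi samples and 8.13, 6.08 and 6.07 in Control RNAi samples. It fell by 2.12 ± 0.47 (adjusted p = 0.00961) and fell by 1.44 ± 0.09 without Control RNAi replicate 1 (adjusted p = 4.02e-05). Ttk, the Mps1 kinase that starts checkpoint signalling, had levels of 4.12, 3.89 and 3.95 in NF1 RNAi + U0126 samples, 4.21, 4.20 and 3.99 in NF1 RNAi samples and 7.93, 5.32 and 5.10 in Control RNAi samples and fell by 1.98 ± 0.61 (adjusted p = 0.0424) and fell by 1.07 ± 0.11 without Control RNAi replicate 1 (adjusted p = 0.000263). Spc25, a subunit of the Ndc80 complex that grips microtubules, had levels of 5.75, 5.57 and 5.61 in NF1 RNAi + U0126 samples, 6.13, 6.04 and 5.94 in NF1 RNAi samples and 9.28, 7.29 and 7.23 in Control RNAi samples and fell by 1.90 ± 0.46 (adjusted p = 0.0147) and fell by 1.22 ± 0.08 without Control RNAi replicate 1 (adjusted p = 5.01e-05). In all 3 genes the NF1 RNAi arrays lay below the lowest control by more than their own spread. Cenpf fell by 1.84, Nuf2, another Ndc80 complex subunit, by 1.46, and Mad2l1, the Mad2 inhibitor of Cdc20, by 0.99. Their differences without Control RNAi replicate 1 were -1.11, -0.82 and -0.57, and all 3 passed. Zwint, which links the checkpoint proteins to the kinetochore, had levels of 10.33, 10.48 and 10.44 in NF1 RNAi + U0126 samples, 10.37, 10.70 and 10.63 in NF1 RNAi samples and 10.94, 11.24 and 11.32 in Control RNAi samples. It is the gene whose control replicate 1 was the lowest control, and it fell by 0.60 ± 0.12 (adjusted p = 0.0055) and fell by 0.71 ± 0.10 without Control RNAi replicate 1 (adjusted p = 0.00146). Bub1, a checkpoint kinase, was the exception. Its levels were 5.51, 4.80 and 5.02 in NF1 RNAi + U0126 samples, 6.73, 5.83 and 5.38 in NF1 RNAi samples and 8.99, 6.82 and 6.94 in Control RNAi samples, with NF1 RNAi replicate 1 just below the control replicates 2 and 3. The difference was -1.61 ± 0.56 (adjusted p = 0.0655), or -0.90 ± 0.35 without Control RNAi replicate 1 (adjusted p = 0.1), and with the replicate number as a block the adjusted p was 0.00518.

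Among the 5 genes of chromosome structure and the chromosomal passenger complex, which corrects faulty attachments, 3 fell with all arrays and 4 without Control RNAi replicate 1. Mki67, the Ki-67 protein that coats mitotic chromosomes and marks proliferating cells, had levels of 4.43, 4.11 and 4.18 in NF1 RNAi + U0126 samples, 4.97, 4.28 and 4.11 in NF1 RNAi samples and 9.55, 6.74 and 6.81 in Control RNAi samples. It fell by 3.24 ± 0.65 (adjusted p = 0.00624) and fell by 2.32 ± 0.22 without Control RNAi replicate 1 (adjusted p = 0.000234), or 9.48-fold and 4.99-fold. The highest NF1 RNAi array, replicate 1, lay well below the lowest control, replicate 2. Top2a, the topoisomerase that untangles sister DNA, had levels of 4.92, 4.92 and 4.82 in NF1 RNAi + U0126 samples, 5.19, 5.04 and 5.19 in NF1 RNAi samples and 9.25, 6.05 and 6.14 in Control RNAi samples. Its difference was -2.0 ± 0.71 (adjusted p = 0.0673), or -0.95 ± 0.07 without Control RNAi replicate 1 (adjusted p = 8.68e-05), and 0.0447 was its adjusted p with the replicate number as a block. Control replicates 2 and 3 were close together and replicate 1 stood far above them, and Top2a passed when any 1 of the 3 controls was left out. Aurkb, the kinase of the passenger complex, had levels of 5.34, 5.10 and 5.32 in NF1 RNAi + U0126 samples, 5.14, 4.59 and 4.28 in NF1 RNAi samples and 7.47, 6.06 and 5.52 in Control RNAi samples and fell by 1.68 ± 0.43 (adjusted p = 0.0197) and fell by 1.12 ± 0.24 without Control RNAi replicate 1 (adjusted p = 0.0106). Birc5, survivin, which brings that kinase to the centromere, had levels of 6.33, 6.34 and 6.35 in NF1 RNAi + U0126 samples, 6.44, 6.14 and 6.40 in NF1 RNAi samples and 7.93, 6.61 and 6.52 in Control RNAi samples. Its difference was -0.69 ± 0.32 (adjusted p = 0.147), or -0.24 ± 0.09 without Control RNAi replicate 1 (adjusted p = 0.0959), so it did not pass. Cdca8, borealin, the scaffold of the same complex, fell by 1.19, and fell by 0.73 without Control RNAi replicate 1. Incenp, the other subunit of the complex and not one of the 47 listed genes, had a difference of -0.15 ± 0.15 (adjusted p = 0.519), or 0.05 without Control RNAi replicate 1.

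The genes of the APC/C and its substrate securin were 3. Ube2c, the ubiquitin-conjugating enzyme of the APC/C, had levels of 5.84, 5.78 and 5.76 in NF1 RNAi + U0126 samples, 6.16, 5.97 and 5.81 in NF1 RNAi samples and 9.52, 7.43 and 7.67 in Control RNAi samples and fell by 2.23 ± 0.45 (adjusted p = 0.00656) and fell by 1.57 ± 0.11 without Control RNAi replicate 1 (adjusted p = 6.31e-05). Pttg1, securin, which holds separase in check, had levels of 6.72, 6.44 and 6.28 in NF1 RNAi + U0126 samples, 6.76, 6.56 and 6.43 in NF1 RNAi samples and 9.48, 7.59 and 7.39 in Control RNAi samples and fell by 1.57 ± 0.46 (adjusted p = 0.0342) and fell by 0.91 ± 0.14 without Control RNAi replicate 1 (adjusted p = 0.00235). Cdc20, the activator of the APC/C, had levels of 6.59, 6.51 and 6.76 in NF1 RNAi + U0126 samples, 6.65, 6.85 and 6.85 in NF1 RNAi samples and 8.68, 7.26 and 7.20 in Control RNAi samples. Its difference was -0.93 ± 0.33 (adjusted p = 0.0715), or -0.45 ± 0.09 without Control RNAi replicate 1 (adjusted p = 0.00908). Cdc20 thus missed the threshold with all 9 arrays and passed without control replicate 1.

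Of 7 spindle motors and microtubule proteins 2 fell, and 5 fell without Control RNAi replicate 1. Aspm, which focuses spindle poles, had levels of 5.52, 4.89 and 4.93 in NF1 RNAi + U0126 samples, 5.52, 5.25 and 4.73 in NF1 RNAi samples and 8.82, 6.41 and 6.35 in Control RNAi samples and fell by 2.03 ± 0.58 (adjusted p = 0.0316) and fell by 1.21 ± 0.24 without Control RNAi replicate 1 (adjusted p = 0.00739). Nusap1, which bundles spindle microtubules, had levels of 6.31, 6.18 and 6.19 in NF1 RNAi + U0126 samples, 6.35, 5.99 and 6.35 in NF1 RNAi samples and 8.24, 7.25 and 7.13 in Control RNAi samples and fell by 1.31 ± 0.25 (adjusted p = 0.00542) and fell by 0.96 ± 0.11 without Control RNAi replicate 1 (adjusted p = 0.000578). Hmmr, a spindle pole protein and hyaluronan receptor, had levels of 4.99, 4.98 and 4.88 in NF1 RNAi + U0126 samples, 5.27, 5.03 and 5.14 in NF1 RNAi samples and 8.19, 5.86 and 6.01 in Control RNAi samples. Its difference was -1.54 ± 0.51 (adjusted p = 0.0538), or -0.79 ± 0.09 without Control RNAi replicate 1 (adjusted p = 0.000455), and its adjusted p was 0.0305 with the replicate number as a block. The motors Kif2c, which takes microtubules apart, and Kif11, which pushes the poles apart, had differences of -1.19 and -0.71, and Dlgap5, which stabilises fibres at the kinetochore, one of -1.14; none of the 3 passed. Without control replicate 1, Kif2c fell by 0.48 and Dlgap5 by 0.52. Kif11 passed with the replicate number as a block (adjusted p = 0.0472). Tacc3, which carries clathrin and ch-TOG to the spindle, had levels of 6.56, 6.59 and 6.11 in NF1 RNAi + U0126 samples, 6.13, 6.24 and 6.34 in NF1 RNAi samples and 6.52, 6.12 and 6.11 in Control RNAi samples. Its difference was -0.01 ± 0.15 (adjusted p = 0.97), or 0.12 ± 0.14 without Control RNAi replicate 1 (adjusted p = 0.577), and the arrays of the 3 groups overlapped.

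Of the 5 measured genes of the spindle midzone and cytokinesis, which build the contractile ring between the daughter cells, 4 fell. Racgap1, a subunit of the centralspindlin complex, had levels of 5.28, 4.93 and 5.07 in NF1 RNAi + U0126 samples, 5.54, 5.24 and 5.54 in NF1 RNAi samples and 9.49, 7.63 and 7.55 in Control RNAi samples. It fell by 2.78 ± 0.44 (adjusted p = 0.00194) and fell by 2.15 ± 0.13 without Control RNAi replicate 1 (adjusted p = 3.35e-05), the smallest adjusted p of the 43 genes in both fits. Ect2, the exchange factor that starts the contractile ring at the division plane, had levels of 4.28, 4.31 and 4.36 in NF1 RNAi + U0126 samples, 4.58, 4.47 and 4.32 in NF1 RNAi samples and 8.85, 5.87 and 6.29 in Control RNAi samples and fell by 2.54 ± 0.63 (adjusted p = 0.0164) and fell by 1.62 ± 0.12 without Control RNAi replicate 1 (adjusted p = 8.46e-05). Prc1, which crosslinks midzone microtubules, had levels of 6.50, 6.33 and 6.24 in NF1 RNAi + U0126 samples, 6.64, 6.52 and 6.41 in NF1 RNAi samples and 10.35, 8.02 and 8.0 in Control RNAi samples and fell by 2.26 ± 0.53 (adjusted p = 0.0129) and fell by 1.48 ± 0.10 without Control RNAi replicate 1 (adjusted p = 4.62e-05). In these 3 genes every NF1 RNAi array was lower than every control by more than control replicates 2 and 3 differed. The midzone motor Kif20a fell by 1.76, and fell by 1.01 without Control RNAi replicate 1. Kif23, the motor of centralspindlin and so the partner of Racgap1, did not pass. Its levels were 5.62, 5.34 and 5.10 in NF1 RNAi + U0126 samples, 6.40, 5.97 and 5.61 in NF1 RNAi samples and 8.64, 6.32 and 6.34 in Control RNAi samples, so that NF1 RNAi replicate 1 was above control replicates 2 and 3. Its difference was -1.11 ± 0.55 (adjusted p = 0.181), or -0.34 ± 0.22 without Control RNAi replicate 1 (adjusted p = 0.309). Pimreg, a mitotic regulator that binds the endocytic adaptor PICALM, had levels of 4.37, 4.40 and 4.30 in NF1 RNAi + U0126 samples, 4.78, 4.52 and 4.18 in NF1 RNAi samples and 9.29, 5.99 and 6.27 in Control RNAi samples and fell by 2.69 ± 0.72 (adjusted p = 0.0231) and fell by 1.64 ± 0.16 without Control RNAi replicate 1 (adjusted p = 0.000238).

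**Figure D4:**
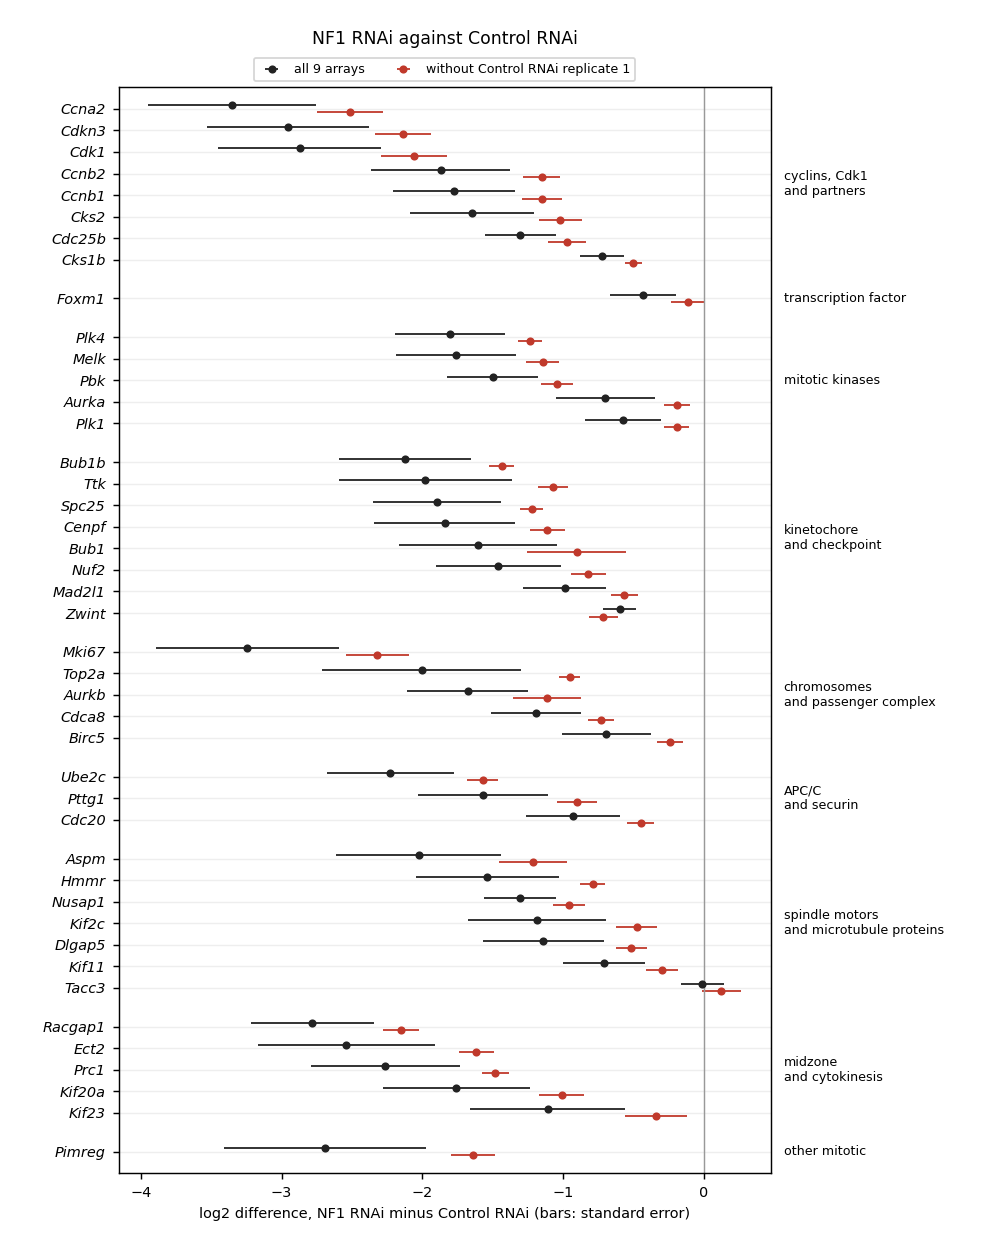
Difference between NF1 RNAi and Control RNAi, log2 with bars of 1 standard error, from the fit over all 9 arrays (black) and without Control RNAi replicate 1 (red). Leaving that array out brings the differences closer to 0 for all genes but Zwint and Tacc3 and narrows the errors, and Tacc3 lies at 0 within its error in both.

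The second comparison, NF1 RNAi + U0126 against NF1 RNAi, asks whether the MEK inhibitor changed these genes in knockdown cells. It found no member called: 0 of 43 passed in limma, where 13.7% of all genes did, and 0 had an unadjusted p under 0.05. The median difference was -0.10, against 0.02 over all genes, and 34 of the 43 (43.6% of all genes) were below 0. They ran from -0.87 for Bub1 to 0.58 for Aurkb. The inhibitor arrays lay wholly below the NF1 RNAi arrays for 7 genes (Ccnb1, Ccnb2, Plk4, Spc25, Top2a, Hmmr and Kif20a), where 16.1% of all genes did so, and wholly above for Cks1b, where 17.8% of all genes did so. The medians of the roles ran from -0.35 for midzone and cytokinesis to -0.01 for cyclins, Cdk1 and their partners. This fit takes its spread from all 9 arrays, Control RNAi replicate 1 among them, and the 95% intervals were wide, with a median half-width of 1.0. They lay wholly between -1 and 1 for 14 genes. A difference as large as 2-fold was therefore not excluded for most of them by this fit, and a p that misses the threshold does not show that the groups were alike.

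With Control RNAi replicate 1 left out of the spread, the differences were the same, the median half-width was 0.24, and 40 of the 43 intervals lay between -1 and 1. In that fit 3 genes fell, where 9.39% of all genes fell, and 13 had an unadjusted p under 0.05. Of all genes, 18.2% passed the adjusted threshold in either direction. The share of all genes under the unadjusted threshold was not taken in either fit, so the unadjusted counts are not read as results about the members. Spc25 differed by -0.39 ± 0.07 (adjusted p = 0.00706), with an interval of -0.56 to -0.23. Plk4 differed by -0.33 ± 0.08 (adjusted p = 0.0209), with an interval of -0.51 to -0.15. Top2a differed by -0.26 ± 0.07 (adjusted p = 0.0285), with an interval of -0.41 to -0.11. These are changes of well under 1 on the log2 scale, and in the fit over all 9 arrays their adjusted p was 0.647, 0.655 and 0.865. Bub1, with the largest difference, had an interval of -2.14 to 0.40 over all 9 arrays and -1.59 to -0.15 without that control. Kif23 had a difference of -0.64 ± 0.55 (adjusted p = 0.518) and Ccna2 one of -0.47 ± 0.60 (adjusted p = 0.677). For Aurkb, the member with the largest difference above 0, the interval was -0.40 to 1.56 over all 9 arrays and 0.09 to 1.08 without that control. Its NF1 RNAi + U0126 arrays stood at 5.34, 5.10 and 5.32, and its NF1 RNAi arrays at 5.14, 4.59 and 4.28. Bub1 and Aurkb had more spread among the NF1 RNAi arrays than among the inhibitor arrays. Mki67 and Cdk1, which had fallen with the knockdown, differed by -0.21 ± 0.65 (adjusted p = 0.882) and -0.02 ± 0.58 (adjusted p = 0.99) with the inhibitor. Their intervals over all 9 arrays were -1.68 to 1.26 and -1.33 to 1.29.

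The replicate 1 arrays of the 3 groups deviated together across genes (r from 0.37 to 0.62). Arrays of replicates 2 and 3 correlated as much across these 2 numbers (r from 0.14 to 0.40) as within them (r from 0.17 to 0.34). A pairing by number was thus seen for replicate 1 only. The differences within each number were also taken. With the inhibitor 19 of the 43 genes were lower in all 3 pairs. Cks1b and Aurkb were higher in all 3, and Mad2l1 was equal in pair 1 and higher in pairs 2 and 3. The share of all genes lower in all 3 pairs was not taken. The count of 19 is therefore not read as a result about the members. A block for the replicate number over all 9 arrays called 0 of the 43 genes, where 19.6% of all genes were called. With the block and without Control RNAi replicate 1, a combination chosen after the data were seen, 10 genes fell, where 13.1% of all genes fell, and 1 rose, where 13.0% of all genes rose. Those that fell were Bub1, Kif23, Ccna2, Spc25, Racgap1, Ccnb1, Ccnb2, Plk4, Cenpf and Top2a, and the 1 that rose was Aurkb. Bub1 differed by -1.22, -1.03 and -0.35 in pairs 1, 2 and 3, and its adjusted p was 0.0824 with the block alone and 0.00621 also without that control. Kif23 differed by -0.78, -0.62 and -0.51 in the pairs (adjusted p = 0.293 and 0.00186), Ccna2 by -0.37, -0.69 and -0.36 (adjusted p = 0.479 and 0.0095), and Racgap1 by -0.26, -0.31 and -0.48 (adjusted p = 0.556 and 0.0181). All 4 genes thus shifted the same way in each pair on the probe set used. Aurkb was higher by 0.19, 0.51 and 1.04 in the pairs (adjusted p = 0.238 and 0.039). With all replicate 1 arrays left out, 7 genes fell, where 9.49% of all genes fell, and 2 rose, Aurkb and Cdc25b, where 8.95% of all genes rose. The 4 genes above were among the 7. The calls of members with the inhibitor thus depended on Control RNAi replicate 1 and on the block.

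**Figure D5:**
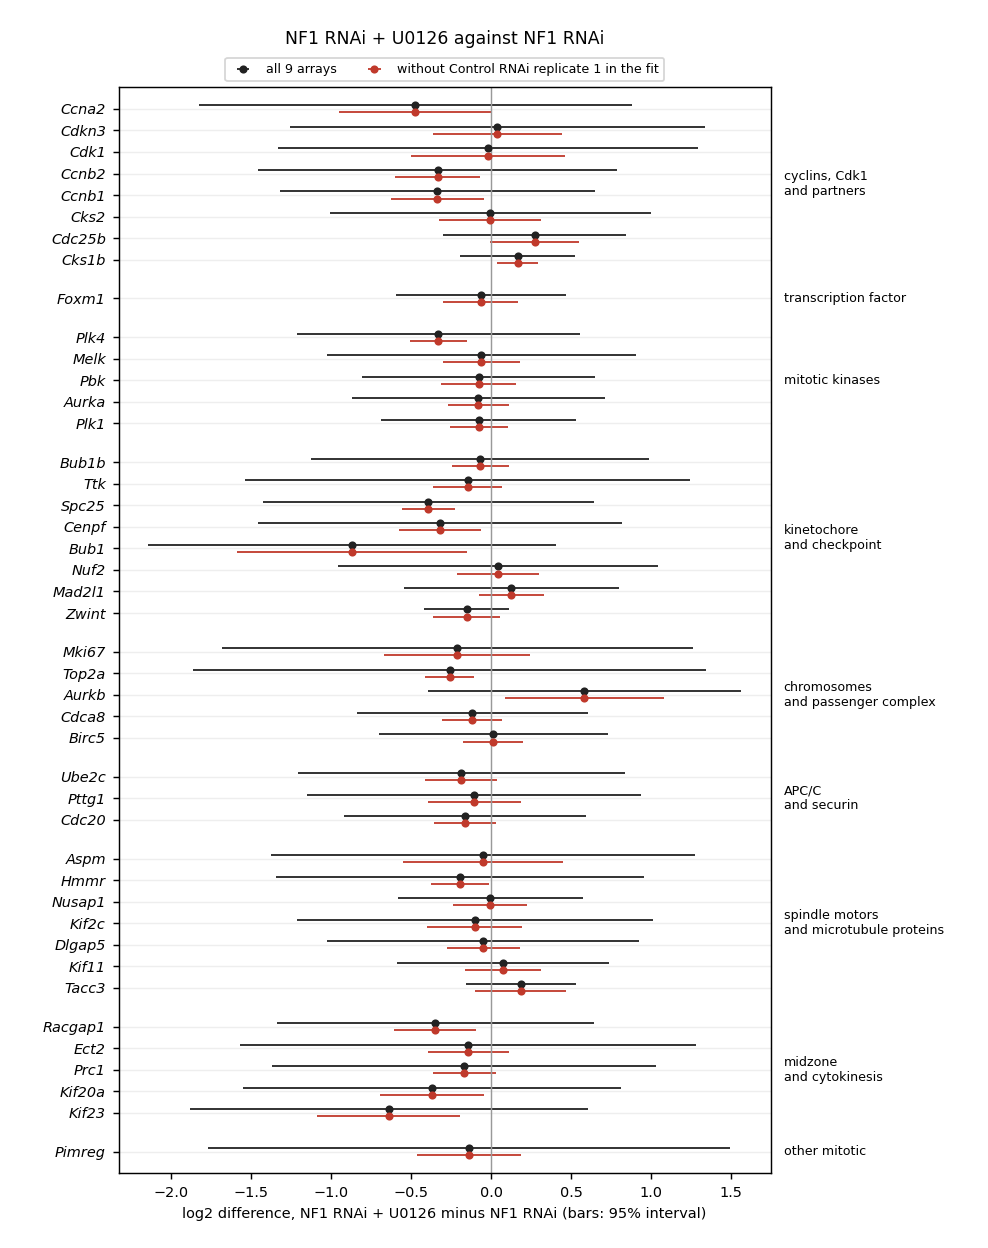
Difference between NF1 RNAi + U0126 and NF1 RNAi, log2 with 95% intervals, from the fit over all 9 arrays (black) and without Control RNAi replicate 1 in the fit (red). All intervals over 9 arrays cross 0, and most reach beyond -1 or 1. The intervals are not adjusted over genes. The red ones of 13 genes exclude 0, among them Spc25, Plk4 and Top2a, the only 3 that passed the adjusted threshold.

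The third comparison, NF1 RNAi + U0126 against Control RNAi, shares its arrays with the other two, so the values that follow are not independent of those above. Here 34 of the 43 genes fell and 0 rose, where 17.6% of all genes fell and 17.9% rose. The median difference was -1.75, against 0.04 over all genes, and 42 of the 43 were below 0, as were 42.0% of all genes. The groups did not overlap for 42 genes, where 21.7% of all genes were lower without overlap, and the exception was Tacc3. Without Control RNAi replicate 1, 38 genes fell (18.0% of all genes) and the median was -1.12. By role, the 8 cyclins, Cdk1 and partners, the 8 kinetochore and checkpoint genes, the 3 genes of the APC/C and securin, the 5 of midzone and cytokinesis and Pimreg all fell, together with 3 of 5 kinases, 3 of 5 chromosome and passenger genes and 3 of 7 spindle genes. Ccna2 fell by 3.83 ± 0.60 (adjusted p = 0.0011) and fell by 2.99 ± 0.23 without Control RNAi replicate 1 (adjusted p = 4.08e-05). Mki67 fell by 3.46 ± 0.65 (adjusted p = 0.00304) and fell by 2.53 ± 0.22 without Control RNAi replicate 1 (adjusted p = 7.07e-05). Racgap1 fell by 3.13 ± 0.44 (adjusted p = 0.000603) and fell by 2.50 ± 0.13 without Control RNAi replicate 1 (adjusted p = 6.39e-06). These are the 3 largest differences in this comparison. Bub1 fell by 2.48 ± 0.56 (adjusted p = 0.00796) and fell by 1.77 ± 0.35 without Control RNAi replicate 1 (adjusted p = 0.00484), and Kif23 fell by 1.75 ± 0.55 (adjusted p = 0.0349) and fell by 0.98 ± 0.22 without Control RNAi replicate 1 (adjusted p = 0.00836). Both had missed the threshold in NF1 RNAi without the inhibitor. Top2a, Hmmr and Cdc20, which had also missed it, fell by 2.26, 1.73 and 1.10. Whether these 5 genes differ between the inhibitor and no inhibitor is the second comparison, where none of them passed over all 9 arrays.

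The members that did not pass against Control RNAi with both treatments were 9. Aurkb, which had fallen with NF1 RNAi alone, differed by -1.10 ± 0.43 (adjusted p = 0.0794), or -0.53 ± 0.24 without Control RNAi replicate 1 (adjusted p = 0.125). Foxm1 differed by -0.50 ± 0.23 (adjusted p = 0.134), or -0.18 ± 0.11 without Control RNAi replicate 1 (adjusted p = 0.259). Plk1 differed by -0.65 ± 0.27 (adjusted p = 0.0912), or -0.27 ± 0.09 without Control RNAi replicate 1 (adjusted p = 0.0454), and Aurka by -0.78 ± 0.35 (adjusted p = 0.116), or -0.27 ± 0.09 without Control RNAi replicate 1 (adjusted p = 0.0497). Both kinases thus fell by a small amount once control replicate 1 was left out. Birc5 differed by -0.68 ± 0.32 (adjusted p = 0.129), or -0.22 ± 0.09 without Control RNAi replicate 1 (adjusted p = 0.0923). Dlgap5, Kif2c and Kif11 had differences of -1.19, -1.29 and -0.63. Without Control RNAi replicate 1, Dlgap5 fell by 0.56 (adjusted p = 0.00459) and Kif2c fell by 0.58 (adjusted p = 0.0147), and Kif11 differed by -0.23 (adjusted p = 0.166). Tacc3 differed by 0.17, or 0.31 without that control (adjusted p = 0.12). With the replicate number as a block, Aurkb and Dlgap5 passed.

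A second look within genes came from 14 members with more than 1 probe set, which gave 18 further probe sets. In NF1 RNAi against Control RNAi the difference of all 18 had the sign of the probe set used, and 4 of them passed. The size of the fall depended on the probe set, in both directions. The other probe set of Tacc3 had a difference of -1.45 ± 0.46 (adjusted p over all probe sets = 0.0536), against -0.01 for the one used, and that of Kif11 one of -1.72 ± 0.52 (adjusted p over all probe sets = 0.0446), against -0.71. Conversely, the second probe sets of 3 called genes did not pass. That of Ttk had a difference of -0.37 (adjusted p over all probe sets = 0.218), against -1.98, that of Racgap1 one of -1.29 (0.0614), against -2.78, and that of Cks1b one of -0.39 (0.101), against -0.72. For Mad2l1, 1 of the other 2 probe sets passed. Kif23, which had not passed, had -0.23 on its second probe set, against -1.11. The values of Tacc3 above are therefore those of 1 of 2 probe sets that disagree. In NF1 RNAi + U0126 against NF1 RNAi, 12 of the 18 had the sign of the probe set used, 6 had the other sign and 0 passed. There the second probe set of Kif23 had a difference of -0.08 ± 0.15, against -0.64. That of Top2a had one of -0.03, against -0.26, and that of Racgap1 one of -0.28, against -0.35.

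Other genes of the same and neighbouring processes were listed by function and set beside the members; over all genes, 13.3% fell and 13.0% rose with NF1 RNAi, or 13.2% and 12.2% without Control RNAi replicate 1. Of 64 further mitosis genes 52 were measured, and with NF1 RNAi 20 of them fell and 1 rose, with a median of -0.71. Without that control, 25 fell and 1 rose, with a median of -0.36. Shcbp1, a midbody protein, fell by 2.58 ± 0.51 (adjusted p = 0.00568), and fell by 1.84 without that control. Cenpk, of the inner kinetochore, fell by 2.12 ± 0.44 (adjusted p = 0.00746), and fell by 1.50 without it. Depdc1 fell by 1.92 ± 0.61 (adjusted p = 0.0458), and fell by 1.03 without it. Arhgap11a rose by 1.41 ± 0.41 (adjusted p = 0.0337), or 0.90 without it, and is named after its values were seen.

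In the same 52 genes, NF1 RNAi + U0126 against NF1 RNAi gave 1 that fell and 0 that rose, where 7.02% of all genes fell and 6.71% rose. It was Ckap5, which encodes the microtubule polymerase ch-TOG (a difference of -0.29 ± 0.07, adjusted p = 0.0305). Without Control RNAi replicate 1, 7 fell and 2 rose, where 9.39% of all genes fell and 8.82% rose. Among these, Kif15, a spindle motor, differed by -0.81 (adjusted p = 0.000437), Cenpk by -0.78 (adjusted p = 0.00719) and Gtse1 by 1.06 (adjusted p = 0.00483). With NF1 RNAi + U0126 against Control RNAi, 23 fell and 3 rose (Arhgap11a, Gtse1 and Dsn1), where 17.6% of all genes fell and 17.9% rose, and without that control 29 fell and 3 rose, where 18.0% fell and 17.8% rose. The call of Arhgap11a was then lost (adjusted p = 0.0551).

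Of 21 measured genes of DNA replication and S phase, 10 fell and 0 rose with NF1 RNAi, with a median of -0.58. Over all genes 13.3% fell and 13.0% rose. Without Control RNAi replicate 1, 12 fell and 0 rose, with a median of -0.36, where 13.2% of all genes fell and 12.2% rose. Uhrf1, which maintains DNA methylation at replication forks, fell by 1.71 ± 0.41 (adjusted p = 0.0150), Gins1, of the replicative helicase, fell by 1.39 ± 0.29 (adjusted p = 0.00727), and Mcm3, a subunit of the same helicase, fell by 0.78 ± 0.14 (adjusted p = 0.00417). Without that control their differences were -1.12, -0.99 and -0.60, and all 3 passed. With the inhibitor, against NF1 RNAi, 2 fell and 1 rose, shares near those of all genes (7.02% and 6.71%). Ccne2, cyclin E2, fell by 1.34 ± 0.28 (adjusted p = 0.0145) and Mcm7 fell by 0.30 ± 0.08 (adjusted p = 0.0284), and Cdt1, a licensing factor, rose by 0.52 ± 0.11 (adjusted p = 0.0125).

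For regulators and complexes that act with the members, the counts with NF1 RNAi again stand beside falls of 13.3% and rises of 13.0% over all genes. Of 21 measured subunits of the DREAM, E2F and B-Myb regulators, 2 fell and 5 rose, with a median of -0.05. Rbl1, which encodes p107, fell by 1.07 ± 0.12 (adjusted p = 0.000415), whereas Lin9, a MuvB subunit, rose by 0.68 ± 0.15 (adjusted p = 0.0110) and Nfyb, a subunit of NF-Y, rose by 0.40 ± 0.07 (adjusted p = 0.00436). The other calls, named after their values were seen, were differences of -0.23 for Nfya, 0.30 for E2f5, 0.21 for Rbl2 and 0.22 for Tfdp1. Of these 7 calls, that of Rbl2 was lost without Control RNAi replicate 1 (adjusted p = 0.12). Of 17 APC/C subunits and activators 4 fell and 1 rose, with a median of -0.05. Anapc5 differed by -0.43 ± 0.07 (adjusted p = 0.00239), Fzr1 by -0.41 ± 0.06 (adjusted p = 0.00129), Anapc2 by -0.40 ± 0.08 (adjusted p = 0.00587) and Anapc11 by -0.27. Cdc26 rose by 0.29 (adjusted p = 0.0363), a call lost without that control (adjusted p = 0.0724), and the 4 falls passed there too. Of 11 genes of cohesin and its loaders, 0 fell and 2 rose, with a median of 0.13. Mau2 rose by 0.45 ± 0.09 (adjusted p = 0.00721). Smc1a rose by 0.22 ± 0.06 (adjusted p = 0.0264), and without that control its adjusted p was 0.0503.

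Markers of other cells were compared in the same way. Over all genes, 13.3% fell and 13.0% rose with NF1 RNAi, or 13.2% and 12.2% without Control RNAi replicate 1. With NF1 RNAi, 2 of 12 fibroblast markers fell and 1 rose, 0 of 12 macrophage and leukocyte markers fell and 1 rose (Laptm5), 1 of 9 endothelial and mural markers fell and 0 rose, and 2 of 9 Schwann cell markers fell and 1 rose. The endothelial and mural marker was Acta2, with a difference of -0.52 (adjusted p = 0.0456), and its call was lost without Control RNAi replicate 1 (adjusted p = 0.119). The other 7 calls also passed without that control. The fibroblast gene Col3a1 fell by 2.06 ± 0.36 (adjusted p = 0.00346) and Mfap5 fell by 1.83 ± 0.22 (adjusted p = 0.00052), while Ogn rose by 0.68 ± 0.17 (adjusted p = 0.0171). The Schwann cell gene L1cam fell by 2.04 ± 0.14 (adjusted p = 3.8e-05) and Egr2 fell by 1.02 ± 0.14 (adjusted p = 0.000985), while S100b rose by 0.79 ± 0.07 (adjusted p = 0.000136).

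The same markers were read in the comparisons with the inhibitor. Over all genes, 7.02% fell and 6.71% rose against NF1 RNAi, and 17.6% fell and 17.9% rose against Control RNAi. Without Control RNAi replicate 1 these shares were 9.39% and 8.82%, and 18.0% and 17.8%. With NF1 RNAi + U0126 against NF1 RNAi, 6 of 9 Schwann cell markers fell and 0 rose, 1 of 12 fibroblast markers fell (Col1a2) and 1 rose (Ogn), 1 of 12 macrophage and leukocyte markers rose (Cd68) and 0 of 9 endothelial and mural markers passed. L1cam fell by 1.65 ± 0.14 (adjusted p = 0.000164), Ogn rose by 1.37 ± 0.17 (adjusted p = 0.00111), and Cd68 rose by 0.90 ± 0.12 (adjusted p = 0.00147). With NF1 RNAi + U0126 against Control RNAi, 5 of 9 Schwann cell markers fell and 1 rose, 4 of 12 fibroblast markers fell and 1 rose, and 4 of 12 macrophage and leukocyte markers rose. Cd68, a lysosomal protein abundant in macrophages, rose by 1.07 ± 0.12 (adjusted p = 0.000167). Of the 4 macrophage and leukocyte markers that rose, Tyrobp and Cd68 also passed without Control RNAi replicate 1. In the same comparison, leaving out that control also lost the call of Sox10, while Erbb3 then fell and Ngfr rose. Against NF1 RNAi no marker call was lost without that control, and Ngfr and Tek then rose as well. The part of a change in cell types in the differences of the mitosis genes was not tested.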

How the data were processed

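Per the submitters' processing notes, the authors used RMA, a method that corrects background, normalizes by quantiles and summarises the probes of a set; the deposited values are linear intensities, 1 for each of 31099 probe sets on each array. Neither the software version nor the probe set definitions were found in the labels. All calculations used log2(value + 1) of these deposited intensities, a scale on which the change of a dim gene is understated. Precision is limited by the number of arrays.

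After removal of 57 control probe sets, the platform annotation named exactly 1 gene for 20826, several for 436 and no gene for 9780; probe sets with several genes or none were not used. The RefSeq table of GRCr8 gave current symbols, by gene ID (20758 probe sets), by accession (2) or by symbol or synonym (62), and 4 symbols were left as on the array. Where a gene had several probe sets (4526 of 14213 genes), the one with the highest mean level was taken.

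Groups came from the sample titles. Differences were tested in limma 3.58.1 under R 4.3.3 with lmFit and eBayes on group means (9 arrays, 6 residual degrees of freedom), and p was adjusted by Benjamini-Hochberg over all genes, with a threshold of 0.05 and neither a low-value filter nor a fold limit. This procedure was first tested on simulated arrays with known changes. Their noise was independent and, for a gene, of equal spread on every array. They held no outlying array such as Control RNAi replicate 1, so that test does not cover such a case. The members, the other lists and the alternatives were chosen with earlier results of these data known. Levels per array are printed for standard markers and regulators of proliferation (Mki67, Top2a, Ccnb1, Cdk1, Plk1, Aurka, Foxm1, Birc5), for the 3 members of each role with the largest difference between NF1 RNAi and Control RNAi, and for members called differently from most of their role; Tacc3 and Zwint were picked after their values were seen. From each other list up to 3 called genes are named by the size of their difference, and any further ones after their values were seen. Python 3.11.15 with pandas 2.3.3 and matplotlib 3.10.9 made the tables and figures.

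The labels call the replicates independent but do not say what a shared number marks. Deviations from the group means correlated across genes in all 9 same-numbered pairs (r from 0.17 to 0.62), against r from -0.52 to 0.40 in 18 pairs of different numbers. Among the latter, r was negative wherever a replicate 1 array took part, and 0.14 to 0.40 between replicates 2 and 3. Deviations within a group cancel out, so these signs largely follow from the positive r between replicate 1 arrays and are not separate evidence. By these correlations the number set replicate 1 apart, and did not set replicate 2 apart from replicate 3. The fit above leaves the number out, and a fit with it as a block, which has 4 residual degrees of freedom, is among the alternatives. The other alternatives were another pseudocount, filter, scaling, probe set summary, variance model or threshold, a fit to 2 groups only, array weights, each array left out in turn, and, added after the data were seen, the block combined with loss of Control RNAi replicate 1.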

Additional observations from a re-analysis of the deposited data

How the results depend on the processing

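With NF1 RNAi against Control RNAi, 30 of 43 genes were called; the count was 18 in a fit to these 2 groups alone, 13 at an adjusted p under 0.01, and 16 to 35 with each array left out in turn, lowest without NF1 RNAi replicate 2 and highest without Control RNAi replicate 1. With NF1 RNAi + U0126 against NF1 RNAi, 0 were called; 4 were called with these 2 groups alone, 0 to 3 with each array left out, 9 with all replicate 1 arrays left out (7 lower, 2 higher, where 18.4% of all genes were called), and 11 with the replicate block and without Control RNAi replicate 1 (10 lower, 1 higher, where 26.1% were called). With NF1 RNAi + U0126 against Control RNAi, 34 were called; the count was 19 at an adjusted p under 0.01 and 23 to 39 with each array left out. With the replicate number as a block, which pairs the arrays, the counts were 34, 0 and 36 in the same order of comparisons. Of all genes, 32%, 19.6% and 40.8% were called with the block. Such shares were not taken for the fits to 2 groups, the stricter threshold and most fits with 1 array left out. The counts of members there are therefore not read as results about the members. Fits that leave arrays out have fewer samples; the cause of the other shifts was not tested.

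The median differences kept their signs in each leave-one-out fit, from -1.97 to -1.01, from -0.18 to -0.08 and from -2.15 to -1.12 in that order. Signs were followed for the 43 members against Control RNAi and for 17 members with NF1 RNAi + U0126 against NF1 RNAi. Among these, signs turned for Tacc3, Mki67 and Cdk1 under the alternatives. Genes outside the 43 were not followed in this way. Of those, Incenp turned from -0.15 with NF1 RNAi against Control RNAi to 0.05 without Control RNAi replicate 1. Tacc3, at -0.01 with NF1 RNAi against Control RNAi, was at 0.0050 with median centring, 0.040 with quantile normalization, 0.11 with array weights, 0.18 without the replicate 1 arrays, 0.11 with the block and without Control RNAi replicate 1, and -0.083 to 0.12 with each array left out; with NF1 RNAi + U0126 against Control RNAi it was at -0.58 for the mean of its probe sets, against 0.17. Mki67 with NF1 RNAi + U0126 against NF1 RNAi ran from -0.38 to 0.047, the highest without NF1 RNAi replicate 1, and Cdk1, at -0.02, ran from -0.27 to 0.21 and was at 0.12 without the replicate 1 arrays. A filter for a level of 6 on at least 3 arrays left 33 of the 43 genes to test; a difference of a dim gene is a poorer measure of its change.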
